A study of Homo sapiens with 4 samples.

Results

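The nuclear genes of the respiratory chain subunits were followed in DU145, a long-established and androgen-independent line of human prostate carcinoma, grown in medium with serum and exposed for 48 h to vehicle or to an inhibitor of PSF. Members were the genes whose symbol in the platform annotation begins as those of complex I (NDUFA, NDUFB, NDUFC, NDUFS and NDUFV with a number), complex II (SDHA to SDHD), complex III (UQCR), complex IV (COX4 to COX8) or complex V (ATP5), with pseudogenes left out. They came to 78 of 17687 named genes, with 32 under complex I, 3 under complex II, 8 under complex III, 17 under complex IV and 18 under complex V. Each member was read by 1 probe set. Of the 78, 2 match the pattern without being plain subunit genes, namely the noncoding RNA NDUFV1-DT and the read-through ATP5MF-PTCD1. The symbols NDUFS1, SDHB, UQCRFS1 and NDUFA4L2 were not analysed here.

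The series had 4 arrays. They hold vehicle, 5 µM of No.10-3, 0.5 µM of C-30 (called low-dose below) and 2 µM of C-30 (high-dose), 1 array each. The cells of all 4 came from the same line, and the 3 treated arrays were set against the same vehicle array. PSF is an RNA-binding protein encoded by SFPQ. No condition was repeated, so differences carry neither errors nor p-values and every statement describes these arrays alone. The compounds were given at unequal doses, and their values are set side by side without a comparison of potency. In RNA from whole cultures, fewer cells of a kind and less RNA per cell cannot be told apart.

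The respiratory chain sits in the inner mitochondrial membrane. Complexes I and II take electrons from NADH and succinate, complex III passes them to cytochrome c, and complex IV hands them to oxygen, while complexes I, III and IV pump protons that drive ATP synthesis by complex V. Apart from a small set encoded in mitochondrial DNA, the subunits are nuclear genes, transcribed in nearly all cells and often bound near their starts by NRF1 and ETS family factors. Some complex IV subunits also have isoforms that are used mainly in muscle, lung or testis.

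Values are log2 signals, so a difference of 1 is 2-fold on the scale of these values. A gene entered a comparison when the higher of its 2 signals was at least 5.56, the median signal of probe sets with a gene name, and was counted at 2-fold or, as a lower bar, at 1.5-fold (0.585). Background is the level that 95% of negative control probe sets stay under, and it lay between 7.06 and 7.32. Of the 78 members, 60 were above it on all 4 arrays, 4 on some arrays and 14 on none, and 72 entered at least 1 comparison. The epithelial markers KRT8, KRT18, KRT19 and EPCAM were above background on each array, whereas KRT5 and CDH1 were below it. With vehicle, EPCAM was only just above, at 7.33 beside a background of 7.32. The measured leukocyte, endothelial and androgen receptor markers were below background on each array, as were 3 of 4 fibroblast and 3 of 4 muscle markers. Of the remaining 2, the fibroblast collagen gene COL1A2 passed it only with low-dose C-30, and the muscle actin gene ACTA1 was above it throughout, at 8.63, 8.38, 8.14 and 7.78 for vehicle, No.10-3, low-dose and high-dose C-30. Their part in the results was not tested.

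The sequences of 4 members are shown because these genes, all clearly above background, carry the plainest contrasts in the family. UQCRC1 and UQCRC2 encode the paired core proteins of complex III and went opposite ways, while NDUFB2 and NDUFB10 encode membrane-arm subunits of complex I and were both lower, one under every treatment and the other with C-30 alone. Each line gives the 150 bases before the annotated start, 5′ to 3′ on the gene's strand, from RefSeq on GRCh38.p14, with motif matches in capitals. The positions are chr3:48609647-48609796 (minus strand) for UQCRC1, chr16:21953211-21953360 (plus) for UQCRC2, chr7:140696558-140696707 (plus) for NDUFB2 and chr16:1959388-1959537 (plus) for NDUFB10.
UQCRC1: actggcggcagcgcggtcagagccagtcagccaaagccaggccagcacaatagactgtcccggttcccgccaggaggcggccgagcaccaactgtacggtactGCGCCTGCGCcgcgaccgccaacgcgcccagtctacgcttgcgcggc
UQCRC2: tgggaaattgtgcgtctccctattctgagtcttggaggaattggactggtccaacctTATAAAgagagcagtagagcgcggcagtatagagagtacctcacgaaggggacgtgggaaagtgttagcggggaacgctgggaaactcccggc
NDUFB2: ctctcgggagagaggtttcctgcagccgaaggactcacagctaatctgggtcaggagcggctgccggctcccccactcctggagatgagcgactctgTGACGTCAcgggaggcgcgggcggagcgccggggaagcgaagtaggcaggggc
NDUFB10: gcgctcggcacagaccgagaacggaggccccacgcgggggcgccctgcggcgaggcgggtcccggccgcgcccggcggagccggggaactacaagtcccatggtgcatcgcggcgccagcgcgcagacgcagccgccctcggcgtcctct

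In these letters UQCRC1 held a match to the NRF1 motif (GCGC, any base, then TGCGC), UQCRC2 a match to the TATA motif TATAAA, NDUFB2 the cyclic AMP response motif TGACGTCA, and NDUFB10 none of these. The GC content was 69.3%, 53.3%, 67.3% and 78.0% in the same order. Over the 250 bases before the start, searched on both strands, the NRF1 motif was found in 13 of 63 member genes with a RefSeq promoter (20.6%) and in 9.01% of 14250 genes of the array that have one. The ETS motif CCGGAAG was found in 15 (23.8%) against 14.0%, TGACGTCA in 4 (6.35%) against 2.76%, and TATAAA in 7 (11.1%) against 11.7%. A match is a description of the letters, not a site of binding.

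Few subunit genes passed 2-fold on any array, and 2 members did so in all against vehicle. With No.10-3, 0 of 71 members past the floor reached 2-fold, beside 5.68% of all 9219 named genes past it. NDUFA5 was the only one of 72 with low-dose C-30, beside 6.17% of 9267 genes, and ATP5F1D the only one of 71 with high-dose C-30, beside 10.8% of 9319 genes. Between the C-30 doses, 0 of 72 reached it, beside 3.57% of 9282 genes. Among genes above background on at least 1 of the 2 arrays, 5.59%, 6.64%, 12.1% and 3.0% of all genes passed 2-fold in these 4 comparisons, against 0 of 63, 1 of 62, 0 of 60 and 0 of 62 members. No test of this contrast was made, since it would treat genes as replicates.

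**Figure D1:**
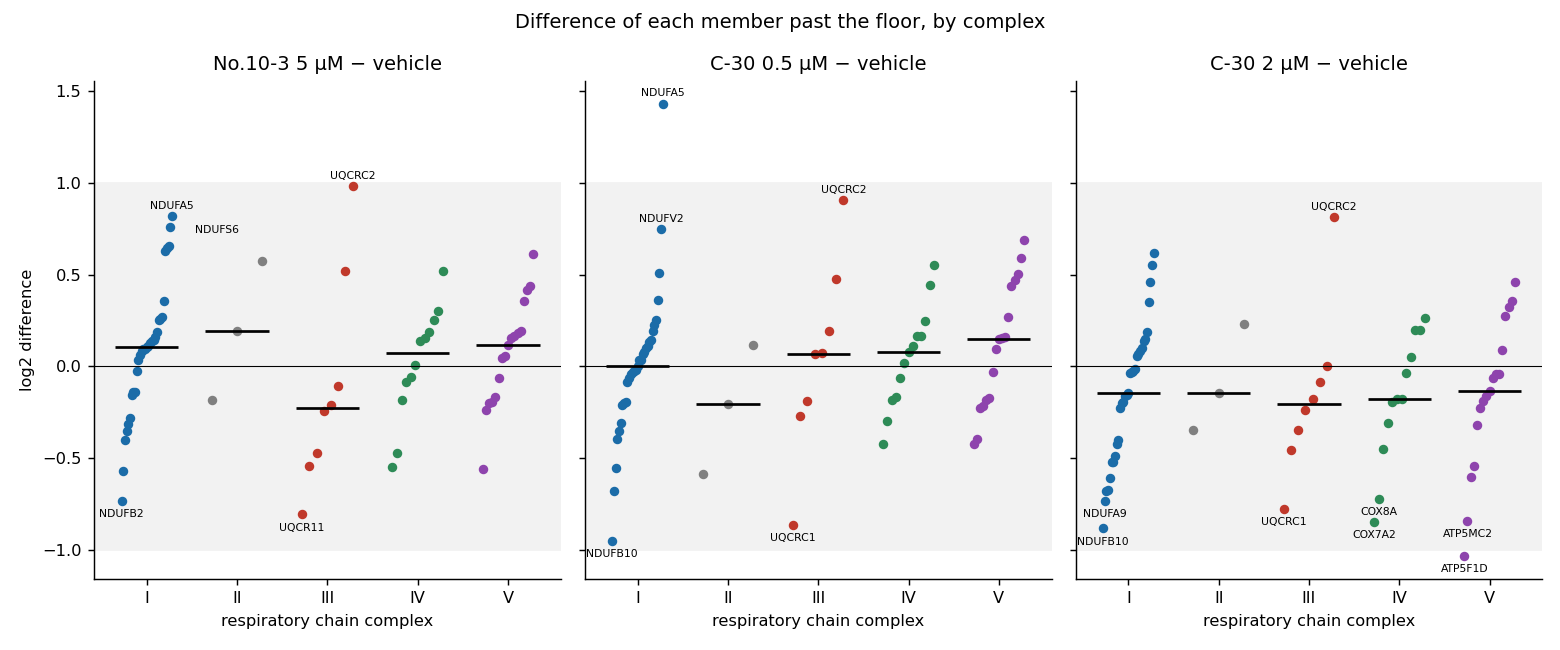
Log2 difference from vehicle (vertical axis) for each member past the floor, grouped by complex I to V, in 3 panels for No.10-3 at 5 µM and C-30 at both doses. Each point is 1 gene, the bar is the median and the shaded band marks differences under 2-fold. NDUFA5 at 1.43 with low-dose C-30 and ATP5F1D at -1.04 with high-dose C-30 are the only points outside the band.

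The members varied less than genes at large in each comparison, by the robust standard deviation of the differences across genes. It was 0.35 for the members and 0.47 for all genes past the floor with No.10-3, 0.33 and 0.51 with low-dose C-30, and 0.37 and 0.60 with high-dose C-30. Between the doses of C-30 it was 0.31 and 0.41. These spreads are across genes and are no replicate error. Of the members, 60 were above background on every array, and all genes past the floor were not matched to them for signal. Whether the smaller spread goes with the level of signal was not tested. The 63 ERCC probe sets had robust standard deviations of 0.13, 0.17, 0.27 and 0.15 in the same comparisons. Whether spike RNA was added to these samples was not established here, so they may read background alone.

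**Figure D2:**
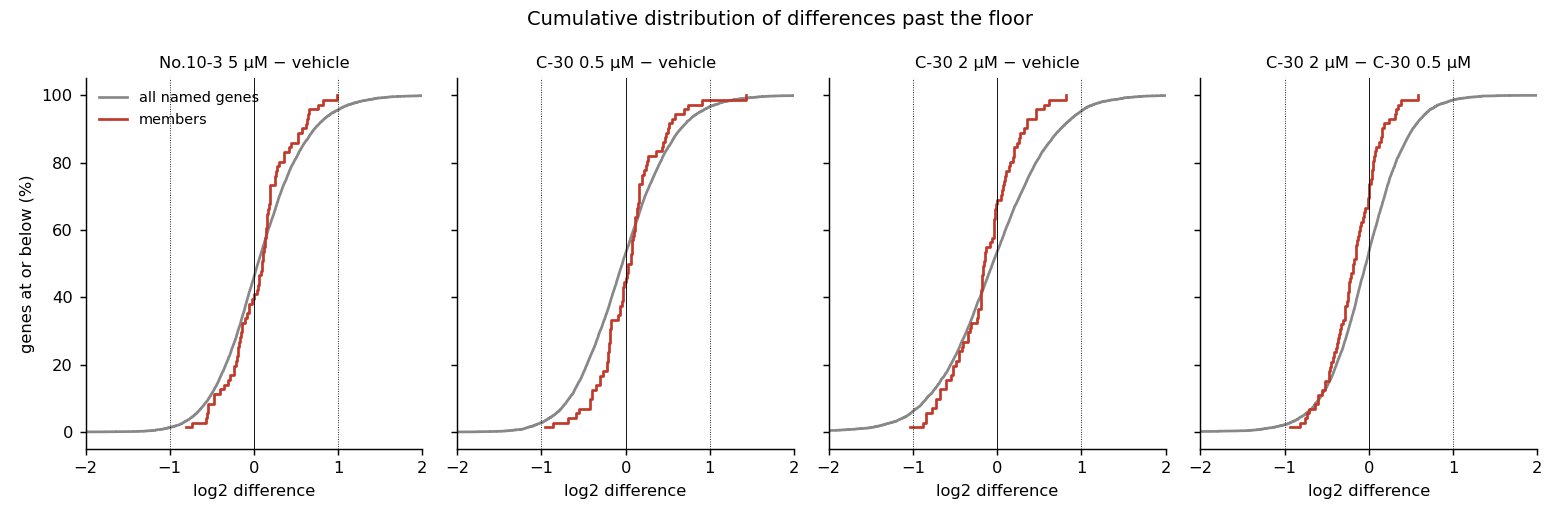
Cumulative share of genes (percent, vertical axis) by log2 difference (horizontal axis) in the 4 comparisons, for members in red and all named genes past the floor in grey; dotted lines mark 2-fold. The members' curve has the shorter tails in each panel. In the 2 right-hand panels its median lies further left, at -0.15 and -0.18 against -0.06 and -0.03 for all genes.

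NDUFA5 and ATP5F1D, the genes past 2-fold, were both near background. NDUFA5 (chromosome 7, 123536997 to 123601651) encodes a subunit of the matrix arm of complex I. Its signal was 6.18 with vehicle, 7.00 with No.10-3, 7.61 with low-dose C-30 and 6.80 with high-dose C-30, and only the third of these was above background. The differences from vehicle were 0.82, 1.43 (2.70-fold) and 0.62, so that the array of the lower C-30 dose stood highest and the fold is inexact. ATP5F1D (chromosome 19, 1241751 to 1244825) encodes the delta subunit in the central stalk of ATP synthase. It read 7.15, 7.20, 6.72 and 6.11 in the same order, above background with No.10-3 alone. The difference of -1.04 with high-dose C-30 (2.05-fold lower) was thus between signals that were both within background, and it came to -0.97 when arrays were centred on their median, short of 2-fold.

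UQCRC2 had the largest difference from vehicle of the 60 members above background on every array. The gene (chromosome 16, 21953361 to 21983660) encodes core protein 2 of complex III. Its signal was 10.20 with vehicle, 11.18 with No.10-3, 11.10 with low-dose C-30 and 11.01 with high-dose C-30. The 3 treated arrays lay close together and all stood above vehicle, by 0.98 (1.98-fold), 0.91 (1.87-fold) and 0.82 (1.76-fold). Of all genes past the floor, 95.5%, 95.3% and 91.6% had a lower difference than UQCRC2 in these comparisons. The 3 differences share the vehicle array, so a low reading there would enter each of them.

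UQCRC1, the gene of core protein 1, stood below vehicle on each treated array. It lies on chromosome 3 from 48599002 to 48609646, and its signal was 11.27 with vehicle, 11.03 with No.10-3, 10.41 with low-dose C-30 and 10.49 with high-dose C-30. Both C-30 arrays were low, at -0.86 (1.82-fold lower) and -0.78 (1.72-fold lower), whereas No.10-3 differed from vehicle by -0.24. CYC1, the cytochrome c1 gene of the same complex, which the symbol rule does not take in, read 12.18, 12.42, 11.68 and 11.58. Its C-30 arrays were thus also the low ones, by -0.50 and -0.60.

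Among the small subunits of complex III, UQCR11, UQCRB and UQCR10 were lowest with No.10-3. UQCR11 (chromosome 19, 1597169 to 1605462), which encodes the smallest of them, read 12.29 with vehicle, 11.48 with No.10-3, 12.02 with low-dose C-30 and 11.83 with high-dose C-30. Its difference of -0.81 (1.75-fold lower) was the lowest of all members with No.10-3. UQCRB read 10.28, 9.73, 10.47 and 10.19, and UQCR10 read 10.06, 9.59, 10.13 and 10.06, so that No.10-3 alone was low for both. UQCRQ differed by -0.21, -0.19 and -0.35. UQCRH, the hinge protein gene, read 9.89, 9.78, 10.37 and 9.65, highest with low-dose C-30. UQCRHL is a near-identical copy of UQCRH whose probe set stayed within background, so their values may share transcripts. Across the 8 genes of complex III the median difference was -0.23 with No.10-3, 0.07 with low-dose C-30 and -0.21 with high-dose C-30. These signs held under all 9 settings that yield a median, the main one included. The brightest probe set, the series' own value table and the lack of a floor could not change them. Only the higher floors and the 3 rescalings could have done so.

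**Figure D3:**
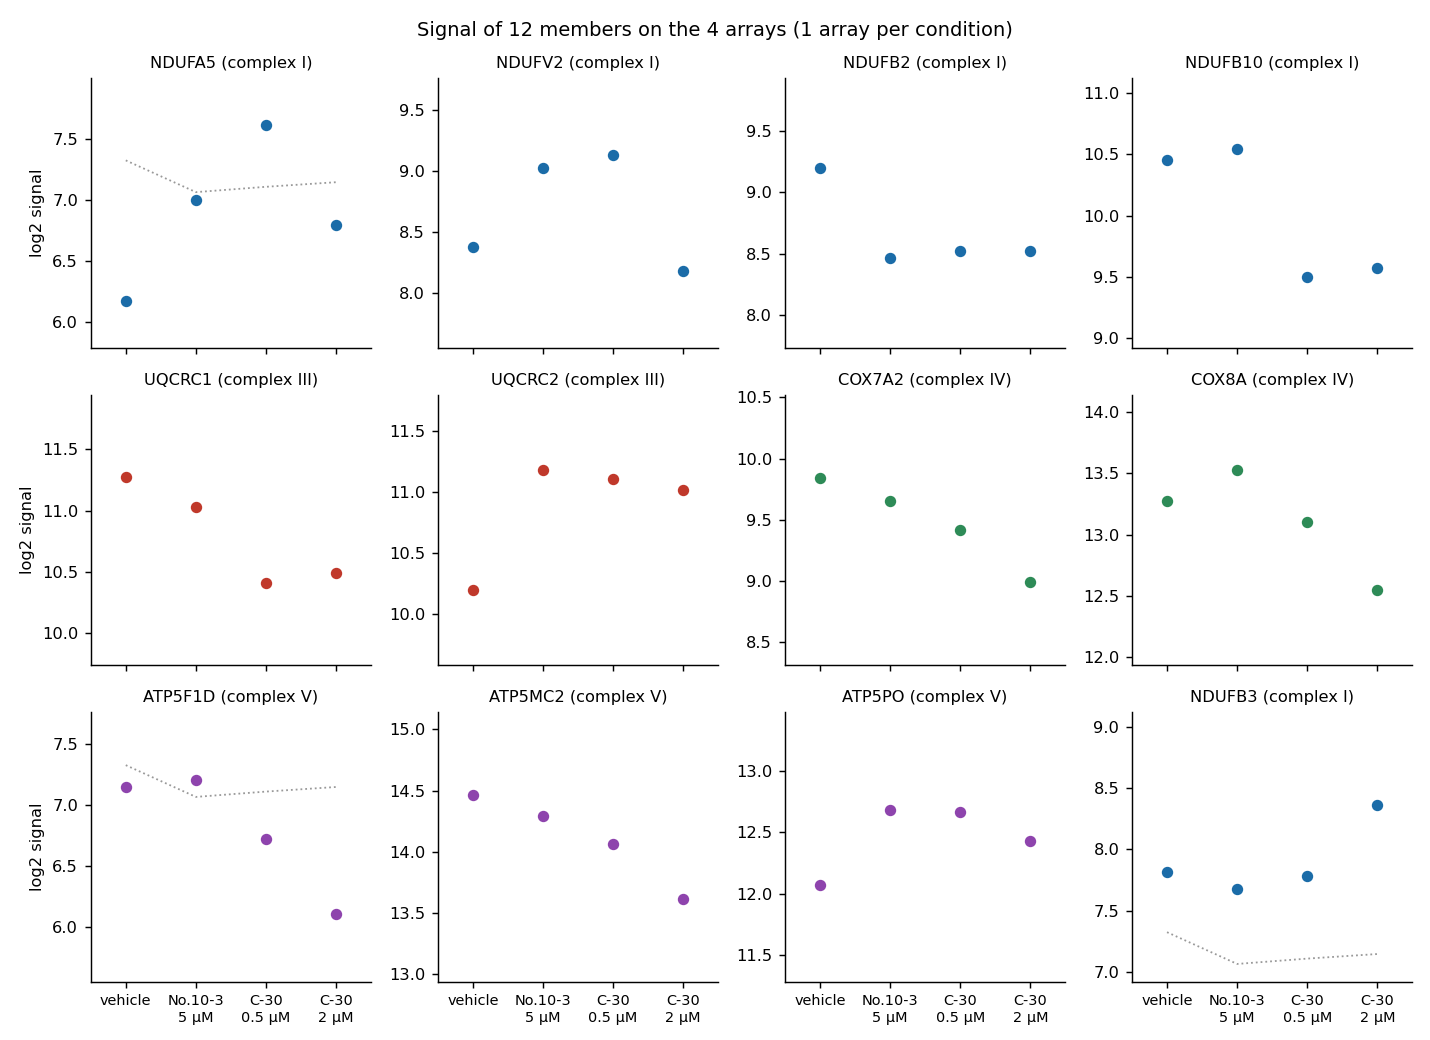
Log2 signal (vertical axis, with the same span in each panel) of 12 members on the 4 arrays (horizontal axis), 1 point per array, with the background level as a dotted line where it falls in the panel. UQCRC2 is low on the vehicle array at 10.20 and NDUFB2 is high there at 9.20, while NDUFB10 separates the C-30 arrays (9.50 and 9.57) from the other 2 (10.45 and 10.54).

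Among the membrane-arm genes of complex I, NDUFB10 and NDUFB2 had the largest differences. NDUFB10 (chromosome 16, 1959538 to 1961975) read 10.45 with vehicle, 10.54 with No.10-3, 9.50 with low-dose C-30 and 9.57 with high-dose C-30. Both C-30 arrays were low, at -0.95 (1.94-fold lower) and -0.88 (1.85-fold lower), and No.10-3 stood at 0.09. NDUFB2 (chromosome 7, 140696708 to 140706643) read 9.20, 8.46, 8.52 and 8.52. The vehicle array was the high one there, with differences of -0.73, -0.68 and -0.67 that hardly separated the treatments. NDUFB3, by contrast, was highest with high-dose C-30, at 8.37 beside 7.81, 7.67 and 7.79. NDUFB5 read 10.22, 10.38, 10.34 and 10.69, likewise highest at that dose, and NDUFB1 was lowest with No.10-3, at 9.78 beside 10.35, 10.61 and 10.42. NDUFB9 and NDUFA10 differed from vehicle by at most 0.26 on any array.

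The matrix arm of complex I holds the flavin and iron-sulfur subunits that accept electrons from NADH. NDUFV1, which carries the flavin, read 11.11 with vehicle, 11.08 with No.10-3, 10.80 with low-dose C-30 and 10.59 with high-dose C-30, the last at -0.52 from vehicle. Its partner NDUFV2 (chromosome 18, 9102699 to 9134341) read 8.38, 9.02, 9.12 and 8.18, so the middle arrays were high by 0.64 and 0.75 and the higher C-30 dose was not. NDUFS6, an accessory zinc-binding subunit, was highest with No.10-3, at 12.59 beside 11.84, 12.06 and 11.92, a difference of 0.76 (1.69-fold). NDUFA2 read 6.71, 7.37, 7.22 and 6.85, above background with No.10-3 and low-dose C-30 alone. NDUFS7, which carries an iron-sulfur cluster, read 6.50, 7.13, 6.15 and 5.82, above background with No.10-3 alone. NDUFA11, of the membrane arm, was lowest with high-dose C-30, at 10.66 beside 11.27, 11.13 and 11.08. NDUFA9, at the junction of the arms, read 9.67, 9.76, 9.11 and 8.94, with the C-30 arrays low, at -0.56 and -0.73.

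By arm, 10 of 13 matrix-arm genes and 11 of 18 membrane-arm genes were higher with No.10-3, beside 54.0% of all genes. Of these, 5 and 0 passed 1.5-fold upwards, beside 14.8% of all genes. Among the 5, NDUFA5 lay within background on both arrays, and NDUFA2 and NDUFS7 did so with vehicle. Only NDUFS6 and NDUFV2 were above it on both. With high-dose C-30, 7 of 13 and 13 of 18 were lower, beside 53.6% of all genes. The medians were -0.01 and -0.16, and the first of these changed sign, to 0.14 at most, under quantile normalization over named genes, a correction for signal and centring. The arms were assigned from textbook structure after the values had been seen, and no difference between them was tested.

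Complex II was represented by 3 genes, whose products oxidise succinate in the citric acid cycle. SDHA, which encodes the flavoprotein, read 9.88 with vehicle, 10.45 with No.10-3, 9.67 with low-dose C-30 and 9.73 with high-dose C-30, and the No.10-3 array was the high one by 0.57. The membrane anchor gene SDHC was nearly level, at 11.08, 11.28, 11.20 and 11.32. The other anchor gene, SDHD, was low with C-30, at 8.26 and 8.50 beside 8.85 and 8.66.

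In complex IV, the genes of subunits found in most tissues gave high signals and the tissue-restricted isoforms stayed within background. COX4I1 read 9.08 with vehicle, 9.24 with No.10-3, 8.78 with low-dose C-30 and 8.77 with high-dose C-30. COX4I2, its lung and hypoxia isoform, read 4.97, 4.74, 4.54 and 4.93. The heart and muscle isoforms were COX6A2, at 6.61, 6.56, 6.72 and 6.88, and COX7A1, at 5.50, 5.44, 6.05 and 5.32. No array reached background for either, and COX7A1 passed the floor with low-dose C-30 alone. Of the testis-linked isoforms, COX6B2 read 4.46, 4.17, 4.76 and 4.51, COX7B2 read 3.60, 2.86, 3.30 and 3.73, and COX8C read 4.58, 4.56, 4.42 and 4.20. These 3 stayed below the floor on every array. Levels of different probe sets are not ranked here, and these isoforms are placed only against the negative controls.

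Among the complex IV genes above background, COX7A2 and COX8A had the largest differences. COX7A2 (chromosome 6, 75237675 to 75250298) read 9.84 with vehicle, 9.66 with No.10-3, 9.42 with low-dose C-30 and 8.99 with high-dose C-30, lowest at the higher dose, at -0.85 (1.80-fold lower). COX8A (chromosome 11, 63974620 to 63976543) read 13.27, 13.53, 13.10 and 12.55, with -0.72 (1.65-fold lower) at that dose. COX6B1 read 11.24, 11.43, 11.25 and 10.79, again lowest there. COX5A and COX5B, which encode subunits that face the matrix, split with No.10-3, at 0.52 and -0.55. COX5A read 12.14, 12.66, 12.59 and 12.34, and COX5B read 10.06, 9.51, 10.00 and 10.02, so that only No.10-3 was low for the latter. COX7C was also lowest with No.10-3, at 13.51 beside 13.98, 14.15 and 14.03, and COX6C differed by at most 0.25.

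The parts of ATP synthase did not share an order of the arrays. ATP5F1A, the alpha subunit gene of the F1 head, read 13.00, 13.15, 12.97 and 12.84, and ATP5F1C, of its central stalk, differed from vehicle by at most 0.22 in size. The catalytic beta subunit gene ATP5F1B read 16.37 with vehicle, 16.78 with No.10-3, 16.51 with low-dose C-30 and 16.83 with high-dose C-30. The genes ATP5MC1, ATP5MC2 and ATP5MC3 encode the same ring protein behind different import sequences. ATP5MC2 (chromosome 12, 53665170 to 53681423) read 14.46, 14.29, 14.06 and 13.62, lowest with high-dose C-30, at -0.84 (1.79-fold lower), whereas ATP5MC1 read 13.75, 13.52, 13.53 and 13.57 and ATP5MC3 read 10.49, 10.85, 10.31 and 10.36. The inhibitor gene ATP5IF1 differed by 0.11, -0.17 and -0.32.

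The 4 peripheral stalk genes, which hold the head still against the rotor, stood mostly above vehicle. ATP5PO read 12.07 with vehicle, 12.69 with No.10-3, 12.67 with low-dose C-30 and 12.43 with high-dose C-30, with vehicle the lowest. ATP5PB read 9.17, 9.61, 9.68 and 9.44, also lowest with vehicle, and ATP5PF read 12.77, 12.82, 13.25 and 13.10. ATP5PD read 12.24, 12.05, 12.51 and 12.20 and did not have that order. The median over the 4 was 0.24, 0.49 and 0.30 in the comparisons with vehicle, positive under each of the 9 settings. All 4 genes passed every floor and have 1 probe set each, so only the 3 rescalings could have changed that sign. The grouping was made after the values had been seen, and no member of it passed 2-fold.

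At the lower bar of 1.5-fold the counts of higher and lower members differed between the arrays. In each direction against vehicle, however, the members' share was under that of all genes, which were not matched to the members for signal. With No.10-3, 7 members were higher and 2 lower, beside 14.8% and 8.34% of all genes. Low-dose C-30 gave 5 higher and 4 lower, beside 12.2% and 13.4%, and high-dose C-30 gave 2 higher and 11 lower, beside 15.1% and 18.5%. As shares of the members past the floor, 12.7%, 12.5% and 18.3% passed 1.5-fold in either direction, beside 23.1%, 25.6% and 33.5% of all genes. The tilt upwards with No.10-3 and downwards with high-dose C-30 was also there in all genes. The 11 lower members at the higher C-30 dose were ATP5F1D, NDUFB10, COX7A2, ATP5MC2, UQCRC1, NDUFA9, COX8A, NDUFS7, NDUFB2, NDUFA11 and ATP5ME, from complexes I, III, IV and V.

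The median member differed from vehicle by 0.10 with No.10-3, 0.05 with low-dose C-30 and -0.15 with high-dose C-30, beside 0.05, -0.04 and -0.06 over all genes past the floor. With high-dose C-30, 49 of 71 members were lower, beside 53.6% of all genes, but after quantile normalization over named genes the median was -0.0040 and 36 of 71 were lower. Centring the arrays gave -0.08 and 40 of 71, and with No.10-3 it brought the median to 0.0076. The share of members on the lower side of vehicle therefore moved with the scaling of the arrays.

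By complex, the medians with No.10-3 were 0.11 for complex I, 0.19 for complex II, -0.23 for complex III, 0.07 for complex IV and 0.11 for complex V. With high-dose C-30 they were -0.15, -0.15, -0.21, -0.18 and -0.13 in the same order, with complex V at 0.01 after quantile normalization. With low-dose C-30 complexes II to V stood at -0.21, 0.07, 0.08 and 0.15, and complex I at -0.0008, which turned positive under each of the 3 rescalings. The complex IV median with No.10-3 also changed sign, to -0.05 at the lowest, without a floor, after quantile normalization and after centring.

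Between the doses of C-30, which share no vehicle reading, 50 of 72 members were lower at 2 µM than at 0.5 µM, beside 53.4% of all genes, with a median of -0.18 beside -0.03 for all genes. Under the other settings the median lay between -0.19 and -0.12, with 45 of 72 lower after quantile normalization. Such a shift was not particular to the members. Of the cytosolic ribosomal proteins, 46 of 57 were lower at 2 µM, with a median of -0.23 that came to -0.016 after quantile normalization. Mitochondrial ribosomal proteins and proteasome subunits were level, at 0.0011 and 0.0031. At 1.5-fold 8 members were lower and 0 higher, beside 9.92% and 7.89% of all genes. They were NDUFV2 at -0.94, NDUFA5 at -0.81, ATP5ME at -0.76, COX7A1 at -0.73, UQCRH at -0.71, ATP5MF at -0.64, ATP5F1D at -0.61 and ATP5MGL at -0.60, of which COX7A1, ATP5F1D and ATP5MGL lay within background at both doses and NDUFA5 at the higher one. ATP5MGL, at 5.65, 5.85, 6.34 and 5.74, is a near-identical copy of ATP5MG, and their values may share transcripts. ATP5ME, a membrane subunit gene of ATP synthase, read 11.94 with vehicle, 11.38 with No.10-3, 12.09 with low-dose C-30 and 11.33 with high-dose C-30. ATP5MF read 10.47, 10.64, 10.56 and 9.93, so that the higher dose alone was low. The 5 supernumerary membrane genes of complex V were each lower at the higher dose, with a median of -0.60. That median is the value of ATP5MGL, and over the 4 genes above background it was -0.56. All 3 complex II genes were higher, by at most 0.24.

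**Figure D4:**
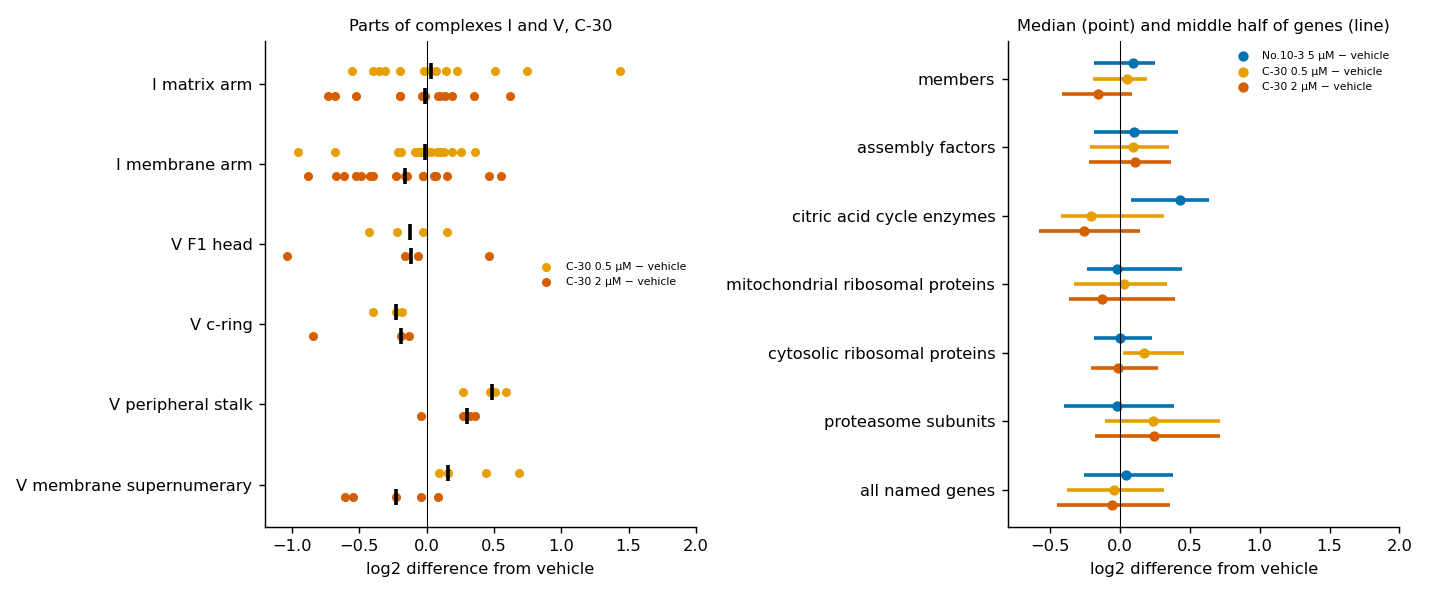
Left, log2 difference from vehicle (horizontal axis) for members in the parts of complexes I and V at the 2 doses of C-30, 1 point per gene, with the median as a black bar. Right, the median (point) and the span between the quartiles (line) of the members, of 5 other lists and of all named genes in the 3 comparisons with vehicle. The peripheral stalk lies at medians of 0.49 and 0.30, and the citric acid cycle list at 0.43 with No.10-3 against -0.20 and -0.26 with C-30.

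Other genes of mitochondrial respiration were taken from lists set out with the members. Of 50 assembly factors of the complexes, 46 were measured, and with No.10-3, low-dose C-30 and high-dose C-30 2, 2 and 2 were past 2-fold upwards and 1, 1 and 0 downwards, of 43 past the floor each time, beside 5.68%, 6.17% and 10.8% of all genes in either direction. The 3 with No.10-3 came to 1, a lower one, after quantile normalization and after centring, and a floor at the 75th percentile left 0, 0 and 1. The complex I assembly gene TMEM126B read 5.84 with vehicle, 6.93 with No.10-3, 7.42 with low-dose C-30 and 7.48 with high-dose C-30, under background on the first 2 arrays. NUBPL, which delivers iron-sulfur clusters to complex I, read 6.79, 7.88, 7.88 and 8.16, under background with vehicle only. BCS1L, the complex III assembly gene, stood at -1.02 with low-dose C-30 and ATPAF2, of complex V, at -1.04 with No.10-3, both within background there. Between the doses 1 assembly factor was past 2-fold, COX17, a copper carrier to complex IV, at -1.22, with its high-dose signal of 7.10 within background.

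The 12 measured citric acid cycle genes other than those of complex II had medians of 0.43 with No.10-3, -0.20 with low-dose C-30 and -0.26 with high-dose C-30, with 0 past 2-fold in each. With No.10-3, 11 of the 12 were higher, beside 54.0% of all genes, led by DLD at 0.99 and IDH3A at 0.87, and SDHA stood on the same side. Of the regulators of mitochondrial biogenesis, 11 or 12 of 18 measured genes passed the floor, with MTERF1 at 1.21 with high-dose C-30, within background, the only one past 2-fold against vehicle. TFAM, which packages mitochondrial DNA and takes part in its transcription, read 8.28, 9.25, 8.91 and 9.02, with vehicle the lowest. TFB2M, a mitochondrial transcription factor, read 8.45, 8.07, 8.18 and 9.33, highest with high-dose C-30. The symbol rule also leaves out CYCS, the cytochrome c gene, which read 10.38, 10.54, 11.03 and 11.14, and NDUFAB1, which differed from vehicle by at most 0.21.

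Beside lists of other abundant housekeeping complexes, the members' medians were not set apart by a test. Mitochondrial ribosomal proteins had medians of -0.02, 0.03 and -0.12 over 71 genes and cytosolic ribosomal proteins of -0.0009, 0.17 and -0.01 over 57, in the order No.10-3, low-dose C-30 and high-dose C-30. Proteasome subunits had medians of -0.02, 0.24 and 0.25 over 34, 34 and 33 genes. The ribosomal and proteasome lists, here and above, were taken by the start of the symbol and are not all plain subunit genes. The proteasome list also holds PSMC3IP and the antisense RNA PSMA3-AS1. The cytosolic ribosomal list also holds RPS19BP1 and the read-throughs RPS10-NUDT3, RPL36A-HNRNPH2 and RPL17-C18orf32. Past 2-fold in either direction were 3, 2 and 2 of the mitochondrial ribosomal proteins, 1, 0 and 1 of the cytosolic ones and 1, 4 and 6 of the proteasome genes, where the members had 0, 1 and 1. As shares of all genes past the floor, 5.68%, 6.17% and 10.8% did so. The mitochondrial ribosomal list stood at 4.23%, 2.82% and 2.82%, and the cytosolic one at 1.75%, 0% and 1.75%. The proteasome list stood at 2.94%, 11.8% and 18.2%, above all genes with C-30, and the members at 0%, 1.39% and 1.41%.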

How the data were processed

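The labels give total RNA of DU145 cells, biotin-labelled with a kit that covers whole transcripts. The deposited values are log2 signals per probe set. The authors' tools were RMA and version 1.3.0 of Affymetrix Expression Console, as listed in the submitters' processing notes. The log base was inferred from the range of the values. RMA scales arrays to each other, so values are relative, and the genome build and annotation behind them were not given in the sources used here.

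There were 24351 probe sets, and the 17709 with a gene symbol gave 17687 genes (probe sets of a gene were averaged). Coordinates come from RefSeq on GRCh38.p14 by Entrez identifier.

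Per-gene differences were taken in 4 comparisons, with no p-value. Precision is limited by the number of arrays. Members, lists and rules were chosen with earlier results of these data known, and the motifs, the sequences shown and the parts of complexes I and V after their values had been seen. By rule, all 4 values are given for members past 2-fold, the 6 highest and 6 lowest against vehicle, the 5 largest between doses, listed core subunits and complex IV isoforms. For other lists at most 4 genes past 2-fold are named. Genes named beyond this were chosen after their values were seen. Alternatives were a 1.5-fold bar, other floors (none, the 75th percentile at 7.90, the negative controls), 3 rescalings (quantile, lowess with fraction 0.3, centring), the brightest probe set and the series' own value table. The procedure was tested on simulated data, in Python 3.11.15 (pandas 2.3.3, numpy 2.4.6, statsmodels 0.14.6, matplotlib 3.10.9).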

Additional observations from a re-analysis of the deposited data

Results flagged for a closer look

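NDUFS7, the gene of an iron-sulfur subunit of complex I, was picked out because it differed from vehicle by more than 1.5-fold in opposite directions, at 0.63 with No.10-3 and -0.68 with high-dose C-30. Its signal was 6.50 with vehicle, 7.13 with No.10-3, 6.15 with low-dose C-30 and 5.82 with high-dose C-30, and only the second was above background. The difference between the treatments was not tested.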

How the results depend on the processing

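No paired analysis was possible because each condition had 1 array. At 1.5-fold the members counted were 9 with No.10-3, 9 with low-dose C-30, 13 with high-dose C-30 and 8 between the C-30 doses, in place of 0, 1, 1 and 0. A floor at the 75th percentile left 0 with low-dose C-30 and 0 with high-dose C-30. With high-dose C-30, 0 were also left with a floor at the negative controls and with centred arrays. Medians of the members moved by less than the robust standard deviation of the ERCC probe sets under every alternative tried. That yardstick is a spread of single probe sets and was larger in size than each of the members' medians against vehicle. It therefore does not show that these medians held. With high-dose C-30 the median went from -0.15 to -0.0040 after quantile normalization. Of the other lists, the regulators of mitochondrial biogenesis moved by more than the yardstick: a floor at the 75th percentile gave 0.000726 with No.10-3 and 0.35 with low-dose C-30. No floor gave 0.085 for that dose and 0.086 between the doses, and a floor at the negative controls gave 0.35 for that dose. Citric acid cycle genes came to -0.53 with high-dose C-30 and a floor at the 75th percentile. Cytosolic ribosomal proteins came to 0.35 with low-dose C-30, 0.32 with high-dose C-30 and -0.016 between the doses after quantile normalization. Over all genes, centring moved the higher share of those past 2-fold from 76.7% to 61.4% with No.10-3 and from 43.2% to 55.4% with high-dose C-30. The cause of these moves was not tested. A higher floor also leaves fewer genes.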

Other observations

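The array also holds 10 probe sets without a gene symbol whose identifier carries the letter M where others carry the chromosome. For named probe sets with a RefSeq chromosome that code equalled the chromosome in 99.96% of 17699 cases, so these may read the mitochondrial genome, which encodes the remaining subunits. They are given by no gene name. Their signals lay between 13.58 and 19.93, and the highest sat at the top of the scale, where a change may not be seen. The probe set with the lowest signals read 13.69 with vehicle, 13.58 with No.10-3, 13.70 with low-dose C-30 and 14.12 with high-dose C-30, and another read 15.46, 15.23, 14.95 and 15.12. No difference from vehicle among the 10 exceeded 0.52 in size.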
